A study of Mus musculus with 8 samples.

Results

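Fabp7, Fabp5, Fabp4 and Fabp3 encode fatty acid binding proteins, and their rows were taken by symbol from a table of 26667 genes. All 4 were present and all 4 passed the filter on low counts, which left 12507 genes. They were selected on their fold changes between the genotypes, so the values of that comparison are given as a description and support nothing. Bone-marrow-derived macrophages of C57BL/6 mice were compared between Dnmt3a KO cultures (4 libraries), in which a gene for a DNA methyltransferase that places new methyl marks was knocked out, and WT cultures (4 libraries). Marrow cells of both genotypes were grown in 30 ng/ml of the growth factor M-CSF and 10% serum and were taken at day 8 to 10, with no other treatment named. The labels do not give the allele or any Cre driver behind the knockout, nor the age or sex of the mice. Nor do they say if each library had its own mouse, so p-values cover library-to-library spread, which may be technical. The question is how transcript levels change in unstimulated macrophages once Dnmt3a is knocked out.

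Fatty acid binding proteins are small cytosolic carriers. Each folds into a barrel that holds a long-chain fatty acid, keeps it soluble and delivers it to membranes, droplets, mitochondria or the nucleus, where PPAR receptors use fatty acids as ligands. In macrophages the family is best known through FABP4 and FABP5, which are linked to lipid loading and inflammatory signalling. FABP7 is known chiefly from radial glia and astrocytes, and in mouse liver from Kupffer cells, while FABP3 is the form of heart and skeletal muscle.

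In the GENCODE annotation of mm10, each gene has 4 exons with exon 2 of 173 bases and exon 3 of 102 bases. Fabp7 lies on chromosome 10 at chr10:57784881-57788450 on the plus strand and encodes 132 residues. Fabp5 lies at chr3:10012548-10016607 on the plus strand and encodes 135 residues. Fabp4 lies on the same chromosome at chr3:10204088-10208576 on the minus strand and encodes 132 residues, and Fabp3 lies at chr4:130308595-130315463 on the plus strand and encodes 133 residues. Exon 3 is shown for each gene because its equal length allows the family members to be compared base by base. The lines below run 5′ to 3′ along the coding strand, and capitals mark the 35 of 102 positions (34.3%) at which all 4 genes have the same base.
Fabp7: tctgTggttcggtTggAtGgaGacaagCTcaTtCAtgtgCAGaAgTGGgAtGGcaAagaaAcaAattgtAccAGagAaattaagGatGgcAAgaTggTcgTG
Fabp5: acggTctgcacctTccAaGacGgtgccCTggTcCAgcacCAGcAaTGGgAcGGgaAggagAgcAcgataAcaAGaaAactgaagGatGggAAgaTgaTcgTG
Fabp4: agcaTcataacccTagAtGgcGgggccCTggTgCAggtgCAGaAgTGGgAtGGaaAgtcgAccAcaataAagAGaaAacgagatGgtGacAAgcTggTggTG
Fabp3: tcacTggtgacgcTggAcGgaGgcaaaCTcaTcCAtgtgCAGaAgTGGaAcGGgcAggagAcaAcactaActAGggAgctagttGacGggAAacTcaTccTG

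These exons lie at chr10:57786265-57786366 for Fabp7, chr3:10015472-10015573 for Fabp5, chr3:10205241-10205342 for Fabp4 and chr4:130313954-130314055 for Fabp3, and all are coding throughout. Over the whole coding sequence, identity was highest between Fabp7 and Fabp3 (66.7%) and lowest between Fabp7 and Fabp5 (56.0%). Fabp4 was 62.5% identical to Fabp7, 61.1% to Fabp5 and 65.7% to Fabp3. The longest run of identical bases shared by any pair of their transcripts was 20 bases, between Fabp7 and Fabp3. Other genes can still share reads with some of them. Fabp5 shares exact runs of at least 50 bases with 5 annotated processed pseudogenes, which were not analysed here, and how reads with several matches were counted is not given in the sources used here. Fabp3 shares such runs with its pseudogene Fabp3-ps1 and overlaps a gene on the opposite strand at either end, Gm10570 by 80 bases and Zcchc17 by 81 bases, and the library kit does not mark strand. The counts of Fabp5 and Fabp3 are uncertain to that extent. No annotated transcript of another gene shares such a run with Fabp7 or Fabp4.

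A promoter sequence was at hand for Fabp7 and Fabp3 in the RefSeq table (GRCm38.p6). That of Fabp7 is shown because this gene had the widest separation between genotypes, and CpG sites, the targets of DNA methyltransferases, are in capitals. The 208 bases at chr10:57784673-57784880 on the plus strand end just before the first annotated exon.
Fabp7 promoter: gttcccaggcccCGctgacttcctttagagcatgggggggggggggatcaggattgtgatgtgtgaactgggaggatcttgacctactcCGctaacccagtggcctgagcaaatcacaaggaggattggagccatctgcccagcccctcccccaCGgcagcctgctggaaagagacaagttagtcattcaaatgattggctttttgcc

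This stretch holds 3 CpG sites. The 250 bases before the RefSeq start of Fabp7 hold 4, against a median of 6 over 32851 promoter windows, of which 37.8% held fewer. The same window of Fabp3 holds 17, and 76.5% of windows held fewer. The whole promoter window of Fabp7, read on both strands, contains AGGTCA, the core hexamer bound by many nuclear receptors, as do 16.3% of all windows, and does not contain TATAAA, which is in 13.6%. The window of Fabp3 contains neither. DNA methylation was not measured in these libraries, so nothing on the methylation of these sites follows.

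Library totals ran from 12614006 to 20801015 counts in Dnmt3a KO and from 15505309 to 28502631 in WT. Dnmt3a itself was at 29.1 to 37.6 CPM (read counts relative to the library total, with TMM scaling) in KO and at 150 to 170 CPM in WT. WT replicate 1 stood apart from the other 7 libraries, at -64.2 on the first principal component against -8.24 to 27.2, so results are also given without it where it matters. The labels number the libraries in separate blocks by genotype, so library order and genotype cannot be told apart. Macrophage markers were high in both genotypes: Csf1r, the M-CSF receptor gene, averaged 2063 CPM in KO and 2109 CPM in WT, and 0 of 13 macrophage markers changed. Over all genes, 152 were higher and 49 lower in KO (adjusted p under 0.05 by the quasi-likelihood test of edgeR), which is 1.61% of those tested, 1.22% higher and 0.392% lower. The count rose to 484 without WT replicate 1 and was 103 without WT replicate 2, and it was 120, 126 and 118 without KO replicates 1, 2 and 4.

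Of the 4 members, Fabp7 and Fabp5 were higher in Dnmt3a KO macrophages and Fabp4 and Fabp3 did not pass the test. Because this contrast chose the members, their count of 2 is not read against the background of 1.61%. All 4 KO libraries lay above all 4 WT libraries for Fabp7 and Fabp5, as they did for 5.13% of all genes tested, while they lay below for 4.28%. In bulk RNA, more cells that express a gene and more RNA per cell cannot be told apart.

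Fabp7, the brain-type carrier with high affinity for long-chain omega-3 fatty acids, had 24.7, 42.5, 39.3 and 45.0 CPM in KO replicates 1 to 4. In WT replicates 1 to 4 it had 4.77, 4.39, 7.33 and 7.50 CPM. The lowest KO library, replicate 1, was above the highest WT library by more than the whole WT range, and the groups did not overlap. The reads behind these levels were 328, 874, 498 and 791 counts in KO and 75, 69, 123 and 217 counts in WT. Fabp7 averaged 37.9 ± 9.12 CPM in KO and 6.00 ± 1.65 CPM in WT (SD, n = 4 each). Its log2 fold change was 2.65 ± 0.24 (SE), with a 95% interval of 2.13 to 3.16 and an edgeR adjusted p of 1.93e-04, and it stood at rank 11 of 12507 genes by fold change. Without WT replicate 1 the log2 fold change was 2.55. The spread between libraries was of like relative size in both genotypes, with a coefficient of variation of 24.1% in KO and 27.5% in WT.

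Fabp5, the epidermal-type carrier that also serves macrophages and can deliver ligand to PPAR delta, had 22.7, 35.1, 25.1 and 26.9 CPM in KO replicates 1 to 4. In WT replicates 1 to 4 it had 11.3, 11.8, 16.1 and 17.4 CPM. KO replicate 2 was the highest library, and the gap between the lowest KO and the highest WT library was narrower than the spread within either group. It averaged 27.5 ± 5.35 CPM in KO and 14.1 ± 3.09 CPM in WT (SD, n = 4 each), a 1.94-fold difference. The log2 fold change was 0.96 ± 0.18 (SE), with a 95% interval of 0.55 to 1.36 and an edgeR adjusted p of 0.0255. The call was lost without WT replicate 2 (adjusted p of 0.0930 with edgeR) and without KO replicates 2, 3 or 4 (0.0858, 0.0553 and 0.0754 with edgeR), while without WT replicate 1 the edgeR adjusted p was 0.00810. Over these single libraries left out the log2 fold change stayed between 0.81 and 1.08.

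Fabp4, the adipocyte-type carrier, which is a PPAR gamma target and partners hormone-sensitive lipase, had 10.2, 12.7, 7.65 and 10.6 CPM in KO replicates 1 to 4. In WT replicates 1 to 4 it had 7.69, 8.01, 6.38 and 7.95 CPM. KO replicates 1, 2 and 4 were above every WT library, but KO replicate 3 lay inside the WT range. The means were 10.3 ± 2.06 CPM in KO and 7.51 ± 0.77 CPM in WT (SD, n = 4 each). The log2 fold change of 0.46 ± 0.18 (SE) did not pass the edgeR test, with an adjusted p of 0.290, and its 95% interval, which is not adjusted for the number of genes, was 0.07 to 0.84.

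Fabp3, the heart-type carrier, was the least abundant and the least precise. It had 2.56, 1.17, 0.79 and 0.85 CPM in KO replicates 1 to 4, from 34, 24, 10 and 15 counts. WT replicates 1 to 4 had 2.29, 1.40, 0.66 and 1.63 CPM, from 36, 22, 11 and 47 counts. Replicate 1 was the highest library in either genotype, replicate 3 the lowest, and the groups overlapped throughout. The means were 1.34 ± 0.83 CPM in KO and 1.49 ± 0.67 CPM in WT (SD, n = 4 each), and the log2 fold change was -0.17 ± 0.46 (SE; edgeR adjusted p of 0.906). Its 95% interval ran from -1.17 to 0.83, and changes within it cannot be told from none in these libraries. The sign itself turned to 0.083 without WT replicate 1.

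**Figure D1:**
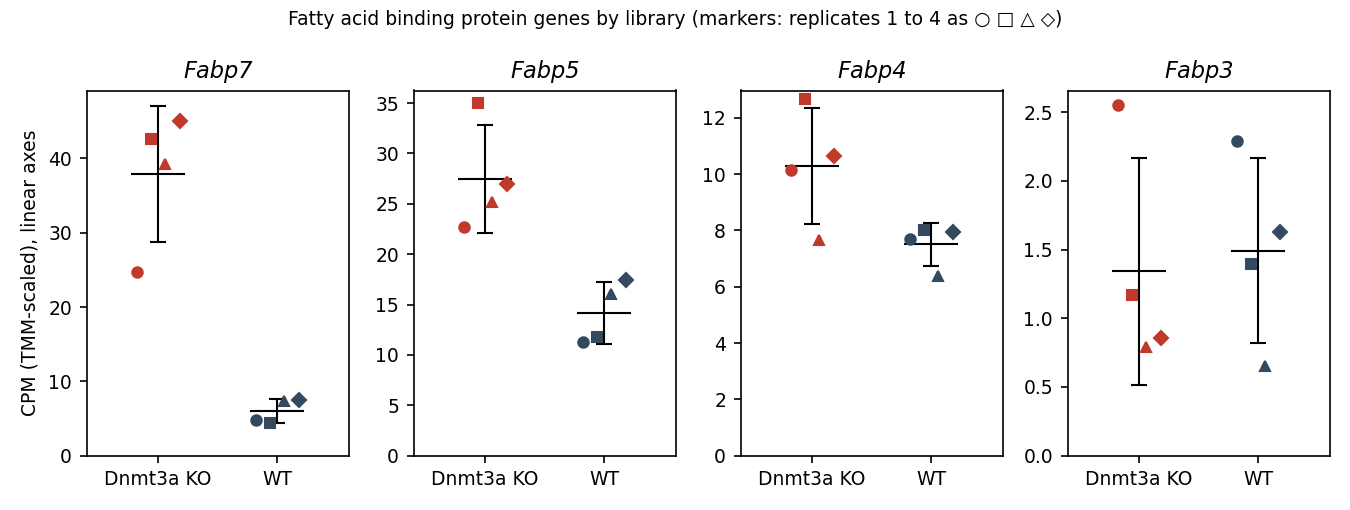
Level of each fatty acid binding protein gene in every library, in CPM on linear axes that start at 0, with Dnmt3a KO left of WT in each panel. Markers are libraries (circle, square, triangle and diamond for replicates 1 to 4), and the black bar and whiskers are the mean ± SD of 4 libraries. For Fabp7 the KO libraries sit at 24.7 to 45.0 CPM and the WT libraries at 4.39 to 7.50 CPM, while the groups overlap for Fabp4 and Fabp3.

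The authors' deposited table of their own comparison gives log2 fold changes as WT over KO, the opposite direction to that used here. In the authors' deposited table Fabp7 stands at -2.65 with an adjusted p of 1.01e-25 and Fabp5 at -0.96 with an adjusted p of 1.66e-04. The authors' deposited table lists Fabp4 at -0.46 (adjusted p 0.233) and Fabp3 at 0.16 (adjusted p 0.945). Both that table and the edgeR fit therefore place Fabp7 and Fabp5 past an adjusted p of 0.05 and Fabp4 and Fabp3 short of it. They rest on the same counts.

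Levels can be set side by side between genes only per length, so CPM was divided by the length of the protein-coding transcript that spans each gene, which is 804 bases for Fabp7, 987 for Fabp5, 896 for Fabp4 and 823 for Fabp3. In KO the order of levels per kilobase was Fabp7, Fabp5, Fabp4 and Fabp3 in all 4 libraries. The means of Fabp7, Fabp5 and Fabp4 in KO were 47.1 ± 11.3, 27.8 ± 5.42 and 11.5 ± 2.30 CPM per kilobase (SD, n = 4), and Fabp3 lay between 0.958 and 3.11 CPM per kilobase. The ranges of Fabp7 (30.7 to 56.0) and Fabp5 (23.0 to 35.5) overlapped across KO libraries, although within each library Fabp7 was the higher by 1.33 to 2.05 times. In WT, Fabp5 was highest in all 4 libraries at 14.3 ± 3.13 CPM per kilobase, and Fabp3 was lowest at 1.81 ± 0.82 CPM per kilobase (SD, n = 4). Fabp4 (8.38 ± 0.86 CPM per kilobase) and Fabp7 (7.46 ± 2.05 CPM per kilobase) did not differ beyond their spread in WT, with Fabp4 the higher in replicates 1 and 2 and Fabp7 in replicates 3 and 4.

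Expressed as a share of the sum of all 4 genes per kilobase, Fabp7 made up 45.0%, 50.9%, 58.3% and 58.2% in KO replicates 1 to 4. In WT replicates 1 to 4 it made up 20.7%, 19.5%, 27.4% and 24.7%. Fabp5 made up 31.7 ± 2.78% in KO and 44.5 ± 4.11% in WT, and Fabp4 13.2 ± 2.69% in KO and 26.7 ± 5.06% in WT (SD, n = 4 each). The shares of Fabp5 and Fabp4 were thus lower in KO although their mean levels were not. The sum itself was 88.0 ± 15.7 CPM per kilobase in KO and 32.0 ± 4.57 CPM per kilobase in WT (SD, n = 4 each). These orders depend on the transcript chosen: with the longest annotated transcript, which for Fabp5 and Fabp4 retains introns, Fabp7 would lead in WT too.

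**Figure D2:**
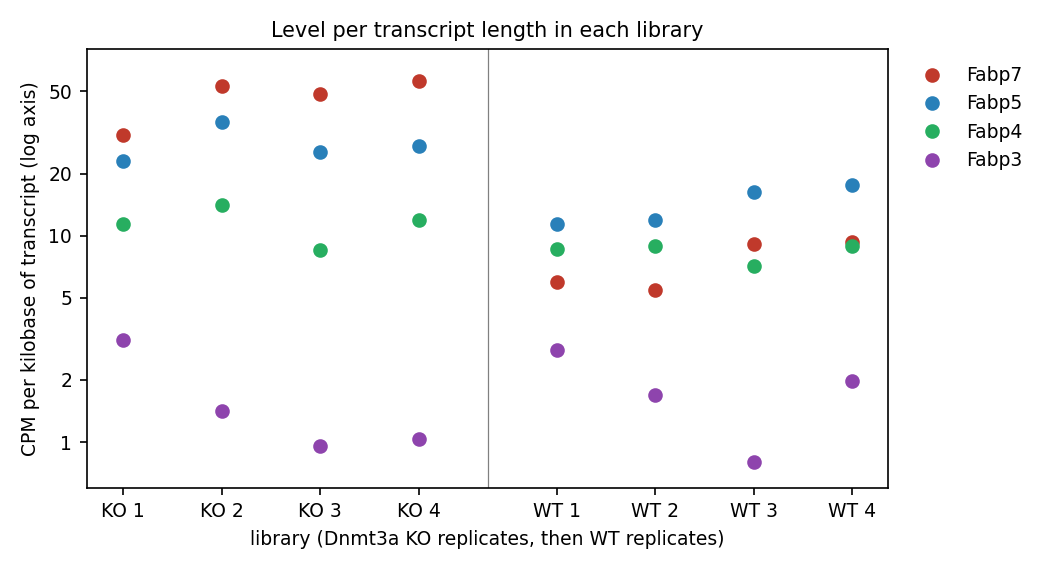
CPM per kilobase of transcript for the 4 genes in every library, on a log axis, with the 4 Dnmt3a KO libraries left of the 4 WT libraries. Fabp7 is the top point in each KO library (30.7 to 56.0 CPM per kilobase), and Fabp5 is the top point in each WT library (11.4 to 17.7 CPM per kilobase).

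Libraries of a genotype also differed from each other in the members' levels. After each genotype's mean was removed from log2 CPM, Fabp7 deviated by -0.58, 0.20, 0.09 and 0.29 in KO replicates 1 to 4 and by -0.28, -0.40, 0.33 and 0.36 in WT replicates 1 to 4. Fabp5 deviated by -0.25, 0.37, -0.11 and -0.01 in KO and by -0.30, -0.24, 0.21 and 0.33 in WT. In WT, replicates 1 and 2 were thus low and replicates 3 and 4 high for both genes. Fabp3 deviated by 1.02 in KO replicate 1 and by 0.69 in WT replicate 1, both libraries in which Fabp7 was below its genotype mean. These points share library and depth, and they are given as a description.

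**Figure D3:**
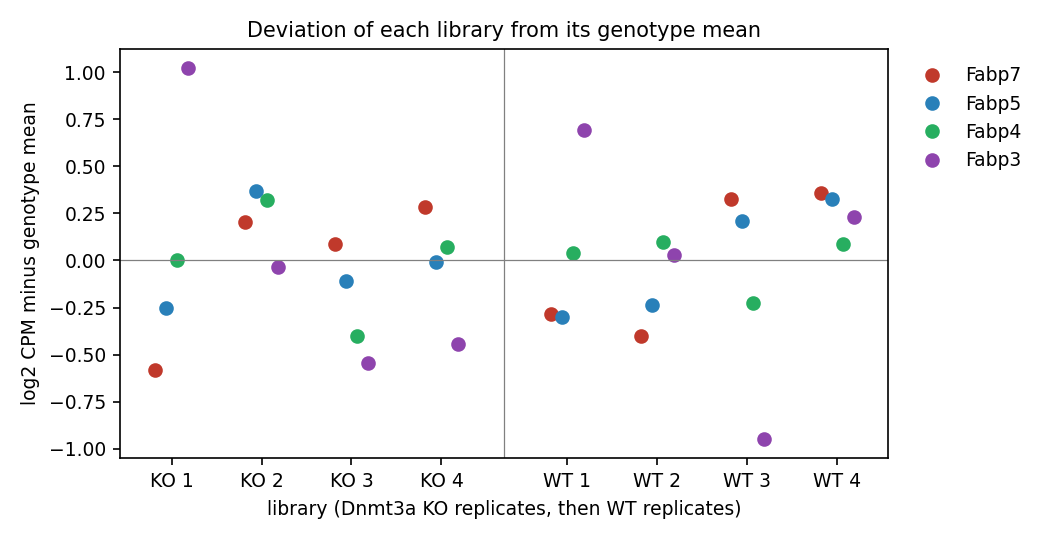
Deviation of log2 CPM from the genotype mean for each gene in every library, with the 4 Dnmt3a KO libraries left of the 4 WT libraries and 0 as the genotype mean. The points of Fabp7 and Fabp5 lie on the same side of 0 in all 4 WT libraries, and Fabp3 has the widest spread, from -0.95 in WT replicate 3 to 1.02 in KO replicate 1.

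The other carriers of the family were close to silent. Of 12 further genes of the fatty acid and cellular retinoid binding family, 11 were found and 0 had enough counts to be tested. Fabp1 (liver form), Fabp2 (intestinal form), Pmp2 (myelin form) and Rbp2 had 0 counts in all 8 libraries. If counts vary by sampling alone, an expected total of up to about 3 counts for each cannot be told from 0. Fabp6, the ileal bile acid carrier, had 2 counts in KO and 0 in WT, Fabp9 had 0 in KO and 2 in WT, and Fabp12 had 1 in KO and 0 in WT. Crabp2 had 13 counts in KO and 12 in WT, Crabp1 had 5 in KO and 1 in WT, and Rbp7 had 2 in each. Pmp2, Fabp9 and Fabp12 lie in the same stretch of chromosome 3 as Fabp5 and Fabp4, and of these 5 genes Fabp5 and Fabp4 alone had enough counts to be tested.

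The neighbours of the members were read out next. Smpdl3a, which encodes a phosphodiesterase and starts 5884 bases beyond the end of Fabp7 on the same strand, was at 174 ± 36.0 CPM in KO and 114 ± 18.1 CPM in WT (SD, n = 4 each). All 4 KO libraries were above all 4 WT libraries, but the log2 fold change of 0.61 ± 0.15 (SE) did not pass the edgeR test (adjusted p of 0.0852). Pkib, a protein kinase A inhibitor gene on the other side of Fabp7, was at 12.2 CPM in KO and 8.06 CPM in WT, with an edgeR adjusted p of 0.382, and the groups overlapped. Serinc1 was at 451 CPM in KO and 417 CPM in WT. Around the chromosome 3 cluster, Zfp704, Pag1, Gm9833 and Impa1 had log2 fold changes of 0.10, 0.25, 0.13 and 0.01, and none passed the test. Next to Fabp3, Serinc2 was at 8.32 ± 4.38 CPM in KO and 3.88 ± 1.49 CPM in WT (edgeR adjusted p of 0.228), while Zcchc17 and Snrnp40 had log2 fold changes of 0.10 and -0.06 and did not pass it. The remaining annotated neighbours, AW822073, Gm37389 and Gm10570, were not analysed here.

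Beyond the carriers, 0 of 75 tested genes of fatty acid handling passed the edgeR test, against 1.61% of all genes. With the 12 further family genes above included, the lists held 115 genes, of which 114 were found. The median log2 fold change of the 75 was 0.08, against -0.02 over all genes tested. Of the 75, 47 (62.7%) were positive, against 46.9% of all genes. At an unadjusted p under 0.05, edgeR took 16 of the 75 (21.3%), 14 of them higher in KO, against 12.7% of all genes. For those higher in KO the background was 6.82%. DESeq2 called 3 of the 75 after adjustment (Fads3, Rxra and Cd36), against 4.41% of all genes, and limma-voom called 0. With no filter on low counts edgeR tested 108 genes of the lists and called Rxra, Cd36 and Apoe, against 1.82% of all genes. With a replicate block it called Fads3 and Cd36 of 75, against 2.08%. Without WT replicate 1 edgeR called 5 of 75, namely Rxra, Nr1h3, Cd36, Apoe and Dgat2, all higher in KO, against 3.82% of all genes. Without WT replicate 4 it called Mgll alone of 76 tested, against 1.32% of all genes.

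Among genes of uptake and activation, 12 were tested and 0 passed, with a median log2 fold change of 0.20. Cd36, the scavenger receptor that takes up long-chain fatty acids and oxidised lipoprotein, had the smallest p, with 1677 CPM in KO and 1038 CPM in WT. Its difference of 0.69 ± 0.21 log2 units (SE) had an edgeR adjusted p of 0.164. All KO libraries were above all WT libraries for 3 of the 12, Cd36 among them, and below for 2, Slc27a1 and Slc27a4. Over all genes tested these shares were 5.13% and 4.28%. Slc27a1, a fatty acid transport protein gene, was at 268 CPM in KO and 361 CPM in WT (edgeR adjusted p of 0.196). Slc27a1, Slc27a4 and, below, Pparg and Ppard were named after their values were seen.

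Of the receptors and coactivators, 7 were tested and 0 passed, with a median log2 fold change of -0.06. Rxra, the shared partner of PPAR and LXR receptors, had the smallest p, at 34.0 CPM in KO and 22.5 CPM in WT (log2 fold change 0.59 ± 0.16, SE; edgeR adjusted p of 0.114). Pparg, which controls Fabp4 in fat cells and macrophages, was at 30.1 CPM in KO and 30.7 CPM in WT, and its log2 fold change had a 95% interval of -0.39 to 0.33. Ppard, whose product receives ligand from FABP5, was at 29.6 CPM in KO and 30.8 CPM in WT, and the interval was -0.51 to 0.40. For both genes the estimates were near 0, and changes within those intervals cannot be told from none.

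Of the PPAR targets 14 were tested and 0 passed, with a median log2 fold change of 0.27. Of the 14, 12 (85.7%) were positive, against 46.9% of all genes. Cd36 had the smallest p there too. Cd36 and Lpl are counted in the uptake list as well, and the lists were chosen with earlier results of these data known. In the lipid droplet and lipolysis list, 0 of 12 passed, and the smallest p belonged to Mgll, the monoglyceride lipase gene, at 1.44 CPM in KO and 0.45 CPM in WT (edgeR adjusted p of 0.157). In beta-oxidation 0 of 22 passed, the median was -0.01, and Acadl, the long-chain acyl-CoA dehydrogenase gene, had the smallest p, at 79.96 CPM in KO and 65.9 CPM in WT (edgeR adjusted p of 0.314). In synthesis and desaturation 0 of 15 passed, and Fads3, a fatty acid desaturase family gene, had the smallest p, at 19.6 CPM in KO and 12.5 CPM in WT (edgeR adjusted p of 0.147). The fold change of Fabp7 was above that of every gene in these lists. Of the 75 genes, 3 had a larger log2 fold change than Fabp5, and these, Mgll, Vldlr and Ffar2, were named for it after their values were seen. The members were chosen on this contrast and the lists were not, so these ranks are a description only.

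**Figure D4:**
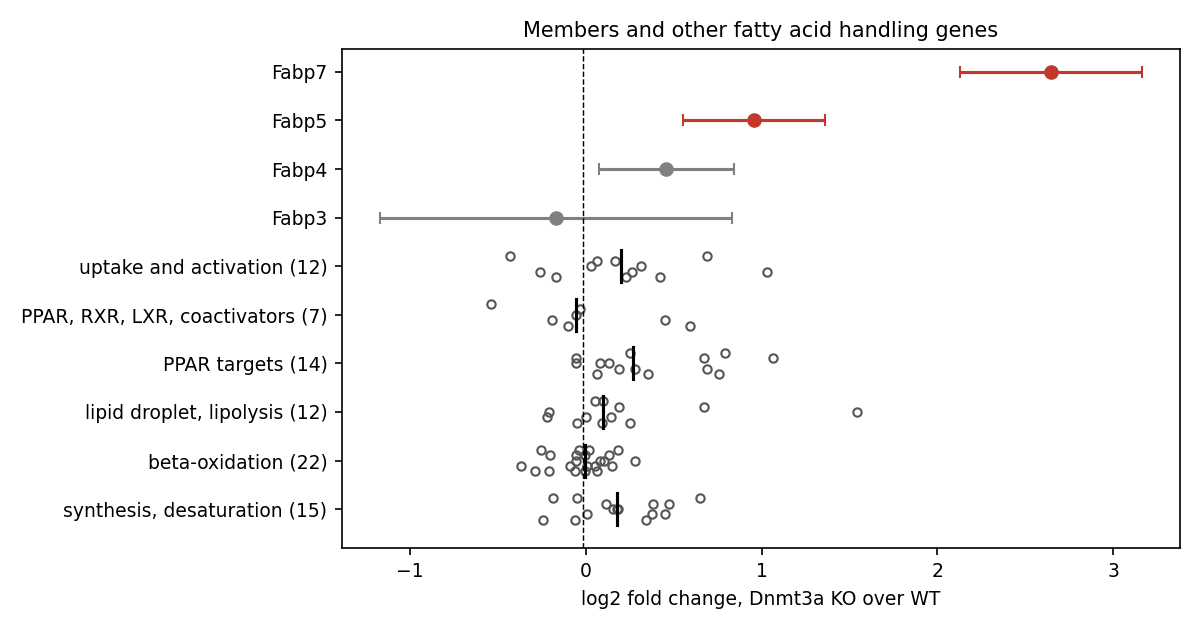
Log2 fold change of Dnmt3a KO over WT for the 4 members, with 95% intervals (red passed the edgeR test, grey did not), above the other fatty acid handling genes by list, with the number tested in brackets. Open circles are genes, black bars are list medians, and the dashed line is the median of all genes tested, -0.02. Fabp7 (2.65), which was chosen on this contrast, lies to the right of every open circle.

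Markers of other cell types that express these carriers were summed in each library, and their calls stand against 1.22% of all genes called higher and 0.392% called lower. For glia and neural progenitors, the known site of FABP7, Sox2 and Olig2 were at 0 counts, 1 of 9 markers could be tested and did not pass (Ncam1, 2.12 CPM in KO and 1.03 CPM in WT, with all KO libraries above all WT libraries), and the summed level was 2.60 to 3.76 CPM in KO and 1.27 to 2.697 CPM in WT. For Kupffer cells, Clec4f had 3 counts in KO and 0 in WT and Vsig4 8 and 11, while 1 of 5 tested markers, the scavenger receptor gene Marco, rose, to 13.4 CPM in KO against 3.17 CPM in WT. The other 4 tested did not pass: Clec1b was at 3.601 CPM in KO and 1.61 CPM in WT, Cd5l at 4.80 CPM in KO and 7.56 CPM in WT, and Folr2 at 29.2 CPM in KO and 36.8 CPM in WT. All KO libraries were above all WT libraries for 2 of the 5, Marco and Clec1b, and below for 1, Cd5l. Over all genes tested these shares were 5.13% and 4.28%. The summed Kupffer level was 142 to 178 CPM in KO and 148 to 193 CPM in WT, most of it from Id3 (110.4 CPM in KO and 113.8 CPM in WT). For alveolar macrophages, another known site of FABP4 and FABP5, 2 of 4 tested markers rose, Marco again and Chil3 (130.3 CPM in KO and 58.6 CPM in WT), while Pparg and Siglec5 did not pass, with log2 fold changes of -0.03 and -0.12. The alveolar sum, most of it from Chil3, was 159 to 188 CPM in KO and 67.6 to 111 CPM in WT. The alveolar markers Car4 (3 counts in KO, 1 in WT) and Ear10 (0 counts) were at or near 0.

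The adipocyte marker Adipoq had 0 counts and the sum of 7 adipocyte markers stayed at or below 0.63 CPM in KO and 0.64 CPM in WT. Of the endothelial markers 0 of 4 tested passed, Cldn5 had 0 counts, and the sum was 25.5 to 35.0 CPM in KO and 18.2 to 26.9 CPM in WT. The keratinocyte marker Krt5 had 0 counts, with a sum of 3.42 to 5.41 CPM in KO and 3.63 to 7.88 CPM in WT that rested mostly on Krt10. The heart and muscle sum was 0.79 to 2.62 CPM in KO and 1.07 to 4.07 CPM in WT. Neutrophil and granulocyte precursor markers did move with genotype: 6 of 15 tested rose (Elane, Ngp, Lcn2, Mmp8, S100a8 and S100a9) and 0 fell, against 1.22% and 0.392% of all genes. Their sum was 800 to 986 CPM in KO and 329 to 483 CPM in WT. The part of the neutrophil, alveolar, Kupffer and glial markers in the levels of Fabp7 and Fabp5 was not tested.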

How the data were processed

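Poly(A) RNA of 8 macrophage libraries was sequenced, 10 ng of RNA each, per the labels' protocols. The submitters' processing notes name Trimmomatic 0.39, STAR 2.7.0a, featureCounts and build mm10, with no counting settings or annotation. The authors deposited raw read counts per gene symbol. A second deposited table, of the authors' comparison, holds for each gene a mean of normalised counts (a signal over all libraries), a p-value (raw and adjusted), a log2 fold change, that value's standard error and a score of the test. Its header has the column names of a DESeq2 result. It runs WT over KO: 99.5% of the 12507 tested genes have the opposite sign there.

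Counts were filtered with filterByExpr (minimum count 10), scaled by TMM and tested on genotype with the edgeR 4.0.16 quasi-likelihood test in R 4.3.3, with Benjamini-Hochberg adjustment over all tested genes. The standard error is the log2 fold change over the square root of F. Alternatives were other scalings and filters, DESeq2 1.42.0, limma-voom (limma 3.58.1), a replicate block and each library left out. The members and gene lists were chosen with earlier results of these data known. Of 197 listed symbols 196 were found, 4 through RefSeq synonyms. The 4 members and the other family genes are named whatever their result, except 1 family gene that is not reported here, with called genes of each fatty acid handling list or else its gene with the smallest p, and the nearest 2 coding genes on each side. Genes of the marker lists were named after their values were seen. Levels per kilobase use the protein-coding transcript that spans the gene (GENCODE vM21), since the longest transcripts of Fabp5 and Fabp4 retain introns; this choice was made after seeing the annotation.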

Additional observations from a re-analysis of the deposited data

How the results depend on the processing

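Fabp7 kept its direction and its call under all 16 alternatives, with log2 fold changes of 2.53 to 2.81, and Fabp4 stayed positive and short of the threshold in all 16. Fabp5 kept its call under 12. With 1 library left out its log2 fold change ran from 0.81 to 1.08 and the call was lost in 4 of 8 cases, as given above. That of Fabp3 ran from -0.65 to 0.083 with 1 library left out and turned positive without KO replicate 3 (7.1e-04), KO replicate 4 (6.3e-04) and WT replicate 1 (0.083), values so near 0 that no direction can be read. Over all genes, the calls numbered 399 when low counts were kept, 551 by DESeq2 and 103 to 484 with 1 library left out. The count of called fatty acid handling genes was 3 of 108 tested with no filter, 3 of 75 with DESeq2 and 0 to 5 with 1 library left out. The cause of these shifts was not tested.

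Replicate numbers are shared between the genotypes, and the labels do not say if they pair the samples. Same-numbered libraries deviated together in some pairs and not in others (correlations over 8887 genes of 0.45, 0.53, 0.08 and -0.08). The WT library most correlated with a KO library bore the same number for KO replicate 1, and another number for KO replicates 2, 3 and 4. These mixed values do not settle if the numbers pair the samples. With a replicate block the count of called genes was 260, the count of called fatty acid handling genes 2, and no member's call changed. With the longest annotated transcript, an alternative added after the data were seen, Fabp5 stood at 8.48 CPM per kilobase in KO and 4.36 in WT and Fabp4 at 2.43 in KO and 1.77 in WT, because that transcript is longer. Depth limits Fabp3 most, with 10 to 47 counts a library.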

Other observations

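Pearson r of log2 CPM with each member was taken over 8 libraries after each genotype's mean was removed. Candidates were the 8311 or 8312 genes that averaged 10 CPM or more, leaving out symbols of predicted genes (such as Gm or Rik names). The genes whose levels followed those of a member most closely within genotypes are named here. For Fabp7 these were Ptger4 (r = 0.97), Gosr2 (0.96) and Sf3b3 (0.96), and 43 genes in all had r over 0.9. For Fabp5 they were Lsm6 (0.98), Smn1 (0.97) and Luzp1 (0.97), with 58 genes over 0.9. Fabp4 was followed most closely by Ndufv2, Pigc and Psma4 (all 0.96), with 9 genes over 0.9, and Fabp3 by Zbed3 (0.98), Mrps15 (0.98) and Ano10 (0.97), with 29 genes over 0.9. None of these 12 genes passed the edgeR test between genotypes (adjusted p from 0.392 to 0.985). The libraries share depth and preparation, and with 8 points such values are a description.

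Between the members, the same measure was 0.83 for Fabp7 and Fabp5, -0.08 for Fabp7 and Fabp4, -0.72 for Fabp7 and Fabp3, 0.25 for Fabp5 and Fabp4, -0.45 for Fabp5 and Fabp3 and 0.44 for Fabp4 and Fabp3, over the same 8 libraries. These values too are a description, and those with Fabp3 rest on its 10 to 47 counts a library.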
